A study of Homo sapiens with 6 samples.

Results

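The 99 protein-coding genes described here mostly encode nuclear subunits of the respiratory chain, and some are complex I assembly factors or readthrough genes. They were chosen by symbol from the 57905 gene identifiers in the count files: symbols that start with NDUF, UQCR, COX4, COX5, COX6, COX7, COX8, ATP5F1, ATP5M or ATP5P, together with SDHA, SDHB, SDHC, SDHD, CYC1 and CYCS. The rule reads symbols alone. Of the 99 genes, 90 had enough counts to be tested, out of 14398 tested genes in all. The samples were total RNA from H929 (NCI-H929), an established human multiple myeloma cell line, and 5 μg of each was kept for 1 h at 37 °C in a buffer with ATP. In the 3 IRE1-treated samples, 2 μg of recombinant human IRE1 (ERN1, amino acids 467 to 977) was added to the RNA, and the 3 control samples went through the same incubation without it. Every reaction was stopped at 95 °C for 5 min, the RNA was cleaned and libraries were made from its poly(A) fraction. The series describes the 6 RNA samples as biological replicates, and the enzyme met purified RNA in a tube rather than living cells, from a single cell line.

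The respiratory chain sits in the inner mitochondrial membrane. Complexes I and II take electrons from NADH and succinate, complex III passes them through cytochrome c to complex IV, which reduces oxygen, and the proton gradient built on the way drives ATP synthesis by complex V. A few core subunits of complexes I, III, IV and V are encoded in mitochondrial DNA, and all other subunits are nuclear genes translated in the cytosol. IRE1 is a kinase and RNase of the endoplasmic reticulum that splices XBP1 mRNA and also cuts other mRNAs, with a known preference for the sequence CUGCAG in the loop of a hairpin.

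The 6 libraries held 19615715 to 25678499 counts on genes each. IRE1-treated replicate 1 stood apart from the other treated libraries: in a chi-square comparison of 2 libraries, the value per gene was 7.03 and 10.95 for its pairs, 3.39 for the other IRE1-treated pair and 2.21 to 3.07 among the controls. Its scaling factor by the TMM method was also the lowest (0.947, against 0.980 and 0.996 in the other treated libraries and 1.02 to 1.03 in the controls), and results are therefore given with and without it. BLOC1S1, a known substrate of IRE1 that shares exons with another annotated gene, fell from 614 ± 34 in the controls to 239 ± 33 normalised counts (mean ± SD, n = 3, as for all means given with ±), by 1.37 on the log2 scale. XBP1, which IRE1 splices, was at 59861 ± 1294 in the controls and 56138 ± 1720.4 in the treated samples (log2 fold change -0.093, adjusted p = 0.143). At the level of exons, the paper reported fewer reads upstream of the XBP1 cleavage sites after treatment and similar numbers downstream. Counts over a whole gene do not separate these parts, so the XBP1 value does not show whether its mRNA was cut. All 9 plasma cell markers examined were detected, with 0.731 to 0.739% of gene counts in the controls and 0.681 to 0.722% in the treated samples. The 8 markers of other cells took 0.00435 to 0.00452% and 0.00435 to 0.00517%. Of these, 6 were too low to be tested (MS4A1, a B cell marker, and CD14, a monocyte marker, were at 0 in the controls), PAX5 was low, and CD3E, a T cell marker, was at 919 ± 21.8 in the controls and 1032 ± 128 in the treated samples. Neither CD3E nor PAX5 passed the test, and their part in the results on the respiratory chain was not tested.

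The respiratory chain mRNAs were higher in the IRE1-treated samples as a group. Of the 90 tested members, 69 rose and 0 fell at an adjusted p under 0.05 (edgeR, quasi-likelihood test, Benjamini-Hochberg adjustment over all tested genes), beside a background over all 14398 tested genes of 10.3% called higher and 12.4% called lower. No member was lower at an unadjusted p under 0.05 either (0 of 90), and DESeq2 called 66 higher and 0 lower (share over all tested genes not computed). The background shares are not matched for level: the median control mean was 1952 normalised counts for the members and 380 over all tested genes. The log2 fold change was above 0 in 88 members and below 0 in 2 (background 50.8% above 0), with a median of 0.26 and quartiles of 0.19 and 0.33, against a median of 0.0045 over all tested genes. In 77 members every IRE1-treated library was above every control library (background 19.1%), and in 0 members were they all below (background 20.0%). With 3 libraries against 3, the smallest p that an exact two-sided permutation test allows for a single gene is 0.1. The changes were small: the largest was a log2 fold change of 0.45.

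Together the 99 genes took 1.11, 1.11 and 1.124% of the counts on genes in control replicates 1, 2 and 3 and 1.29, 1.25 and 1.20% in the same-numbered treated samples, as shares of the raw counts without TMM scaling. The mean share was 1.11% ± 0.0083 in the controls and 1.25% ± 0.045 in the treated samples (SD, n = 3 each), a ratio of 1.121. The 3 treated libraries were all above the controls, and the treated libraries were spread more widely. RNA-seq measures shares of a library, so a larger share of these mRNAs comes with a smaller share of others. The RNA had been purified before the enzyme was added, so words such as rose and higher mean a larger share, not newly made mRNA. The number of cells carrying an mRNA and its amount per cell cannot be told apart either.

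**Figure D1:**
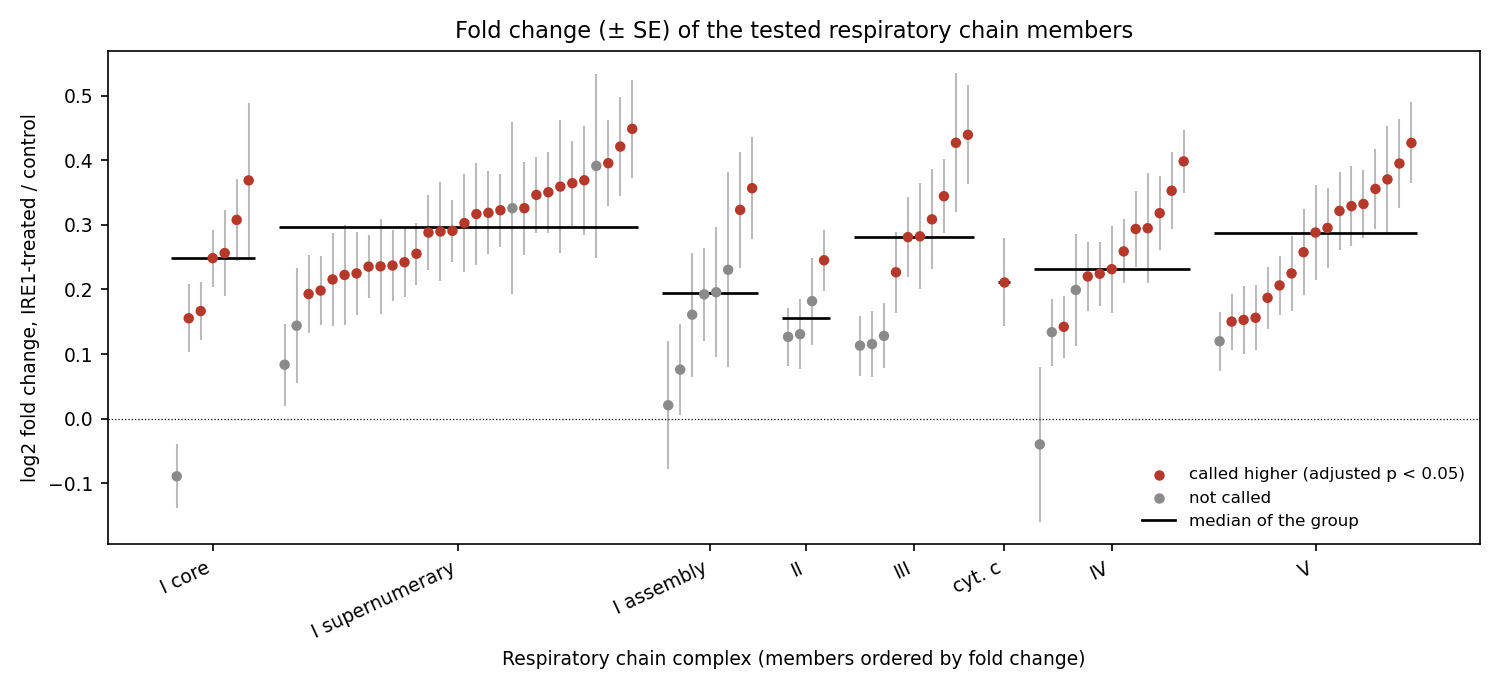
Log2 fold change (IRE1-treated over control) of the 90 tested members, with bars for the standard error of the edgeR fit, grouped by complex and ordered by fold change within each group; red points are called higher at an adjusted p under 0.05, grey points are not called and black lines are group medians. All but 2 points lie above 0, and 69 are red.

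The size of the rise differed among the treated libraries. The median log2 ratio of a member to its control mean was 0.35 in IRE1-treated replicate 1, 0.25 in replicate 2 and 0.19 in replicate 3. Replicate 1 was the highest of the treated libraries for 71 of the 90 members, and replicate 3 was the lowest of them for 75. The coefficient of variation of a member had a median of 3.52% among the controls and 7.78% among the treated libraries (5.53% and 8.22% over all tested genes). When IRE1-treated replicate 1 was left out, 68 members were called higher (background 9.8%) and the median log2 fold change was 0.22. Leaving out control replicate 1 gave 41 members called higher (background 4.88%), and leaving out control replicate 2 gave 43 (background 4.38%), with medians of 0.26 and 0.25. The scaling also moved the counts: with library size alone, 683 genes were called higher and 2596 lower over all tested genes, against 1489 and 1781 with TMM. Under library size 47 members were called higher (background 4.74%) and 1 lower (background 18.0%), and the median was 0.18.

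**Figure D2:**
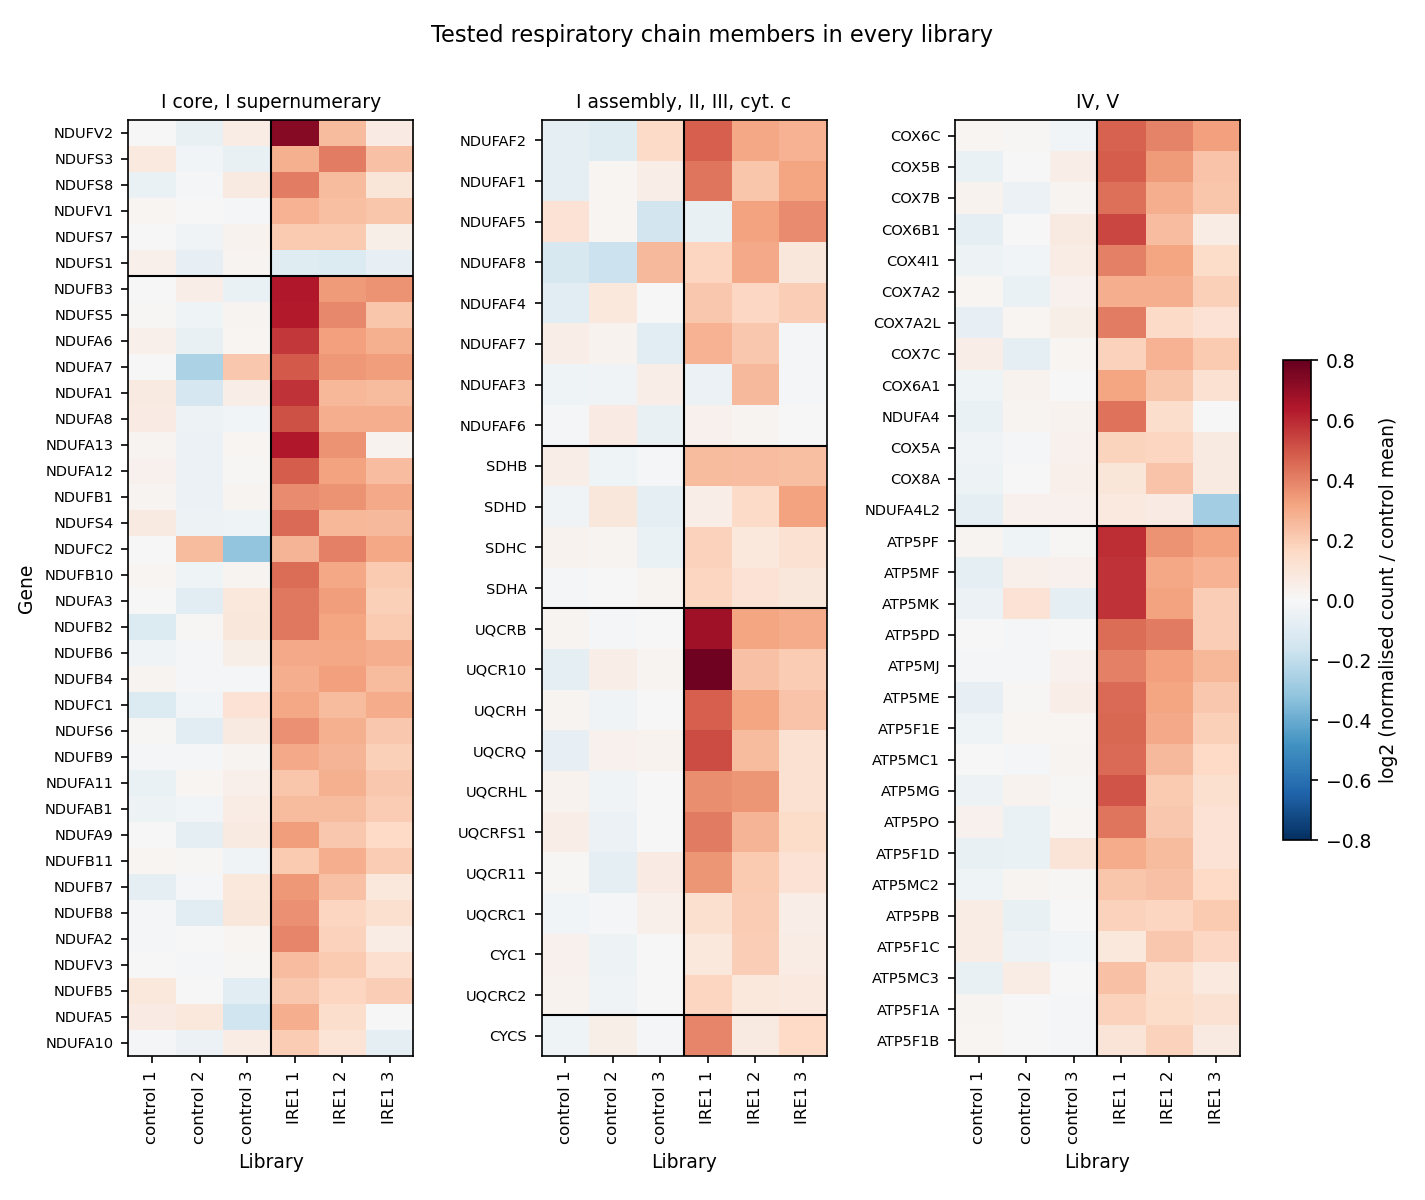
Heat map of the tested members except 1 (rows, grouped by complex and ordered by fold change) in the 6 libraries (columns); the colour is the log2 of the normalised count over the mean of the 3 controls, red for higher and blue for lower. The IRE1-treated columns are mostly red, most strongly in replicate 1 (median 0.35) and least in replicate 3 (median 0.19).

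Member transcripts were short. The canonical transcript had a median of 876 bases (276 to 11660) against 3366 over the 12225 tested protein-coding genes, the coding part had 425 bases against 1425, and 51 of the 90 members were under 1000 bases. Across all tested protein-coding genes, short transcripts were higher in the IRE1-treated samples (Spearman's rho of log2 fold change and length -0.64 over 12225 genes, and -0.48 over the 90 members, which share the same 6 libraries). In bins of length chosen after the data were seen, other genes under 1000 bases had a median log2 fold change of 0.24 with 50.8% called higher, and the 51 members in that bin had a median of 0.30 with 46 called higher. From 1000 to 1999 bases, the other genes had a median of 0.15 with 27.7% called higher and the 18 members a median of 0.17 with 11 called higher. Members with longer canonical transcripts lay further from other genes of their length: between 2000 and 3999 bases the medians were 0.20 for 11 members and 0.021 for other genes, and at 4000 bases or more 0.20 for 10 members and -0.17 for other genes. Several of those 10 have short coding parts and a long annotated 3′ end, so the length of the form in these cells may differ from the annotated one, which was not tested.

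**Figure D3:**
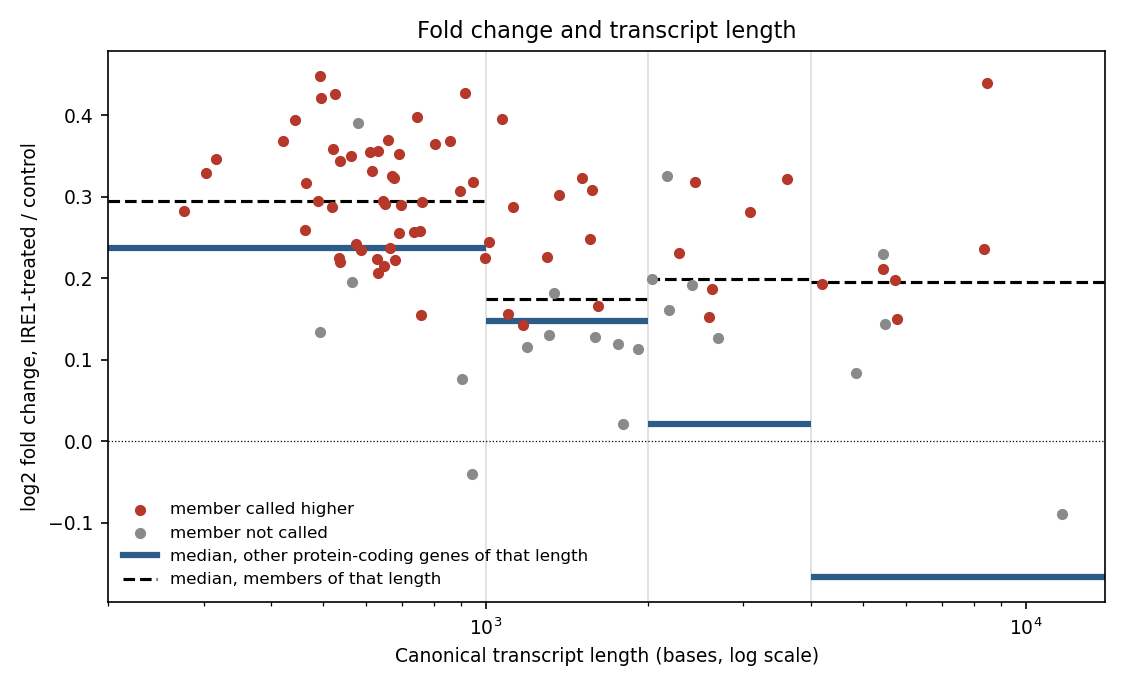
Log2 fold change of the 90 tested members against canonical transcript length in bases (log axis); red members are called higher, grey ones are not called, blue bars are the medians of the other tested protein-coding genes in 4 bins of length and dashed lines the medians of the members. Below 2000 bases the dashed and blue lines are close (0.30 and 0.24, then 0.17 and 0.15), and above it they are apart.

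When a smooth trend with the length and GC content of transcripts was fitted in each library and removed before the test, 28 members were called higher (background 6.97%) and 0 lower (background 4.03%), with a median of 0.15 against 0.020 over all tested genes. Of these, 26 were also called without that step. The other two, NDUFS1 and NDUFA5, both have long annotated transcripts. With the coding length in place of the transcript length the count was 32 (background not computed). The share of all tested genes called higher in every fit was not computed, so the next count has no background beside it. In all 19 fits run, 14 members were called higher: NDUFA6, NDUFA8, NDUFA12, NDUFB3, NDUFB10 and NDUFS5 of complex I, UQCRB, UQCRFS1 and UQCRH of complex III, COX5B, COX6C and COX7B of complex IV, and ATP5MF and ATP5PF of complex V. UQCRFS1 is the Rieske iron-sulfur protein of complex III, and the rest are supernumerary or small accessory subunits of their complexes.

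The sequence that IRE1 is known to prefer was searched as the letters CTGCAG on the sense strand of the canonical transcripts. It was present in 50 of the 90 members (55.6%) and in 85.3% of the 12225 tested protein-coding genes, at 0.616 and 0.806 sites per kb. Among transcripts under 2000 bases the shares were 47.8% of 69 members and 67.2% of 2812 other genes. A site was counted as lying in a hairpin loop when its first G was unpaired in a loop of 5 to 11 bases, with 3 or more base pairs closing it, in a predicted fold of the site with 15 bases on either side. Such a site was present in 9 members (10.0%) and in 35.4% of all tested protein-coding genes. Among transcripts under 2000 bases the shares were 5.80% of the 69 members and 18.2% of the 2812 other genes. These shares describe letters and predicted folds, not cut sites. The following sites, 5′ to 3′ with CTGCAG in capitals, are 3 of the 11 counted loop sites, picked by hand, with the values known, as an example of each part of an mRNA: the 5′ UTR of ATP5F1A (exon 1 of 12, chr18:43678226-43678231, minus strand), the coding part of ATP5MC2 (exon 3 of 5, chr12:54063690-54063695, minus strand) and the 3′ UTR of NDUFA3 (exon 4 of 4, chr19:54610477-54610482, plus strand), all on GRCh37. The last line is a coding site of NDUFS1 in no predicted loop (exon 4 of 19, chr2:207014576-207014581, minus strand), for contrast between sites. NDUFS1 itself also has a counted loop site, in its 3′ UTR, which is not shown.
ATP5F1A 5′ UTR: cggaggctgcggCTGCAGaagtaccgcctg
ATP5MC2 coding: gccgtccgctatCTGCAGtggtgctgaaac
NDUFA3 3′ UTR: ctcaaccttaatCTGCAGgagataaggaac
NDUFS1 coding: tgttgctggaaaCTGCAGgatgtgccttgt

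Members without the letters were shorter and had the larger fold changes, and site and length cannot be told apart in so few genes. Of the 40 members without CTGCAG, 35 rose, with a median log2 fold change of 0.29 and a median length of 670 bases. Of the 41 with CTGCAG but none in a counted loop, 29 rose, with a median of 0.24 and a median length of 1339 bases. Of the 9 with a counted loop site, 5 rose, with a median of 0.20 and a median length of 2168 bases. ATP5F1A, ATP5MC2 and NDUFA3 were among those that rose. NDUFS1, also among the 9 with a counted loop site, did not pass the test. It held 9 CTGCAG sites, the most of any member. In the members, 38 of the 93 sites were coding, 40 lay in a 3′ UTR and 15 in a 5′ UTR.

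Complex I is the NADH dehydrogenase. Its 7 core subunits carry the flavin and the iron-sulfur clusters, and 6 of them rose, with a median log2 fold change of 0.25. NDUFV2, an iron-sulfur subunit, had the largest change of the core, at 647, 621 and 674 normalised counts in the controls and 1073, 771 and 677 in the treated samples (log2 fold change 0.37 ± 0.12 SE, adjusted p = 0.0358). Its rise rested on IRE1-treated replicate 1, which was far above the other treated libraries, and replicate 3 was barely above the highest control. Without that replicate the log2 fold change was 0.16 (adjusted p = 0.109), and the call was lost in 5 of the 6 fits that left out 1 library, with DESeq2 (adjusted p = 0.171) and with the length and GC trend removed (0.21, adjusted p = 0.233).

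NDUFS1 (ENSG00000023228, chr2:206979541-207024233, minus strand, GRCh37), the largest iron-sulfur subunit, was the lowest of the 90 members and the only core subunit that did not rise. It was at 2202, 2049 and 2180.3 normalised counts in the controls and 2005, 1989 and 2051 in the treated samples (log2 fold change -0.089 ± 0.05 SE, adjusted p = 0.219). The groups overlapped by a single library, control replicate 2, which was slightly below IRE1-treated replicate 3. With library size in place of TMM its log2 fold change was -0.16 and called lower (adjusted p = 0.0321), and with the length and GC trend removed it was 0.22 and called higher (adjusted p = 0.0131). With the coding length in that step it was 0.077 (adjusted p = 0.321). Its canonical transcript is 11660 bases long, and the 9 other members of at least 4000 bases had log2 fold changes above 0.

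The supernumerary subunits surround that core, and the 31 genes of this group include the readthrough gene NDUFC2-KCTD14, which was not tested. Of the 30 tested, 26 rose (median log2 fold change 0.30), the largest median of the 8 groups, and in 27 the libraries did not overlap. NDUFB3 (ENSG00000119013, chr2:201936156-201950473, plus strand, GRCh37), a small membrane subunit, had the largest change of all members. It stood at 841, 876 and 811 normalised counts in the controls and 1311, 1065 and 1082 in the treated samples, and the treated mean was 137% of the control mean (log2 fold change 0.45 ± 0.075 SE, adjusted p = 8.18e-04). Replicate 1 was the highest, and the lowest treated library was well above the highest control. Its log2 fold change was 0.35 without that replicate and 0.27 with the length and GC trend removed (adjusted p = 0.0125).

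NDUFA6 (log2 fold change 0.40 ± 0.066 SE, adjusted p = 8.10e-04), NDUFB1 (log2 fold change 0.35 ± 0.058 SE, adjusted p = 8.39e-04) and NDUFB4 (log2 fold change 0.29 ± 0.048 SE, adjusted p = 7.35e-04) had some of the smallest adjusted p-values of all members. NDUFA6 was at 1816, 1695 and 1779.9 normalised counts in the controls and 2609.6, 2214 and 2146 in the treated samples. NDUFB1 and NDUFB4 were more even among the treated libraries, with NDUFB4 at 1989.9, 1946 and 1954 normalised counts in the controls and 2399.6, 2468 and 2339.8 in the treated samples. All 3 were called in every fit that left out 1 library. NDUFA6 was also called with the length and GC trend removed (0.26). NDUFB4 was not (adjusted p = 0.0847), except with the longest transcript or the coding length (adjusted p = 0.0139 and 0.0244). NDUFB1 was called narrowly (0.17, adjusted p = 0.0468), but not with the block added, the longest transcript or the coding length (adjusted p = 0.0767, 0.0626 and 0.125). NDUFS5, a subunit on the intermembrane face, was the most abundant supernumerary subunit per length (6331 ± 138 normalised counts per kb in the controls) and stood at 3159, 3057 and 3186 normalised counts in the controls and 4869, 4085 and 3649 in the treated samples (log2 fold change 0.42 ± 0.076 SE, adjusted p = 0.00137). Its treated libraries were in the order that most members showed, with replicate 1 highest and replicate 3 lowest.

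Of the 4 supernumerary subunits that were not called, NDUFA10 was the lowest, at 2123, 2083 and 2245 normalised counts in the controls and 2476, 2321 and 2045 in the treated samples (log2 fold change 0.084 ± 0.064 SE, adjusted p = 0.382). Its IRE1-treated replicate 3 was below every control, and without that library the log2 fold change was 0.16 (adjusted p = 0.0302). The others were NDUFA5 (log2 fold change 0.14 ± 0.089 SE, adjusted p = 0.271), NDUFA7 (log2 fold change 0.39 ± 0.14 SE, adjusted p = 0.0592) and NDUFC2 (log2 fold change 0.33 ± 0.13 SE, adjusted p = 0.0907), named because they complete the count. NDUFA7 and NDUFC2 were the lowest subunits by counts, with control means of 95.6 ± 15.6 and 143 ± 27.7. NDUFC2 shares exons with the readthrough gene NDUFC2-KCTD14 and NDUFA7 with an overlapping gene that has no name in the annotation, so that reads may have been left unassigned for both. For both, every treated library was above every control.

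The 8 NDUFAF genes encode assembly factors, which build complex I and are not part of it. Of these 2 rose, NDUFAF1 (log2 fold change 0.32 ± 0.09 SE, adjusted p = 0.0174) and NDUFAF2, with a median log2 fold change of 0.19 for the 8. NDUFAF2 was at 621, 611 and 726 normalised counts in the controls and 909, 807 and 789.6 in the treated samples (log2 fold change 0.36 ± 0.079 SE, adjusted p = 0.0046). Its log2 fold change with the length and GC trend removed was 0.19 (adjusted p = 0.0804), and 0.50 with the longest transcript in that step (adjusted p = 0.00366). NDUFAF3, the most abundant of them per length (1864 ± 64.1 normalised counts per kb in the controls), was at 1644, 1652 and 1748 normalised counts in the controls and 1626, 2015 and 1672 in the treated samples (log2 fold change 0.076 ± 0.07 SE, adjusted p = 0.481). Only its IRE1-treated replicate 2 was above the controls, and without that library the log2 fold change was -0.027. NDUFAF6 was nearly level, at 195, 204 and 187 normalised counts in the controls and 200.4, 199 and 196 in the treated samples (log2 fold change 0.021 ± 0.099 SE, adjusted p = 0.908), and its sign turned without control replicate 3 (-0.0075). Whether the assembly factors differ from the subunits was not tested. Their lengths had a median of 1652 bases, against 667 for the supernumerary subunits, and 0 of the 8 were called with the length and GC trend removed.

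Complex II, succinate dehydrogenase, is the one complex with no mitochondrial DNA-encoded subunit. Of its 4 members only SDHB rose, and the 4 had the smallest median log2 fold change of the groups (0.16). SDHB, the iron-sulfur subunit, was at 2594, 2441 and 2469.6 normalised counts in the controls and 2983, 2964 and 2951 in the treated samples (log2 fold change 0.25 ± 0.047 SE, adjusted p = 0.00207). Its treated libraries were almost identical and all above the controls. SDHB was not called with the length and GC trend removed (0.10, adjusted p = 0.119), except with the coding length (0.19, adjusted p = 0.0052). SDHA, the flavoprotein, had the highest level of the complex per length (3327 ± 44.03 normalised counts per kb in the controls) and was at 8845, 8951 and 9082 normalised counts in the controls and 10082, 9717 and 9544 in the treated samples (log2 fold change 0.13 ± 0.045 SE, adjusted p = 0.0515).

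The SDHA groups did not overlap and the value lay at the threshold: it was called with DESeq2 (adjusted p = 0.0281), with limma on the authors' CPM (adjusted p = 0.0412), with upper quartile scaling (adjusted p = 0.0443), and without IRE1-treated replicate 1 or 3 (adjusted p = 0.0421 and 0.0217). With the length and GC trend removed SDHA was not called (0.097, adjusted p = 0.0950), except with the coding length (0.18, adjusted p = 0.0060). Across all fits its log2 fold change lay between 0.050 and 0.18, with adjusted p-values of up to 0.399. SDHA has 4 named pseudogenes. The membrane anchors SDHC and SDHD had log2 fold changes of 0.13 ± 0.054 (SE, adjusted p = 0.0947) and 0.18 ± 0.067 (SE, adjusted p = 0.0632). SDHD was at 1421, 1544 and 1378 normalised counts in the controls and 1503, 1607 and 1809 in the treated samples. In contrast to most members, SDHD was highest in replicate 3 and lowest of the treated libraries in replicate 1, and without replicate 1 it was called (log2 fold change 0.24, adjusted p = 0.0031).

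Of the 10 genes of complex III, the cytochrome bc1 complex, 7 rose (median log2 fold change 0.28), and in all 10 every treated library was above every control. The 3 that were not called were the core proteins UQCRC1 (log2 fold change 0.13 ± 0.05 SE, adjusted p = 0.0777) and UQCRC2 and the haem protein CYC1. UQCRC2, the lowest of the complex, was at 5839, 5612 and 5709 normalised counts in the controls and 6450.2, 6071 and 6042 in the treated samples (log2 fold change 0.11 ± 0.047 SE, adjusted p = 0.0932), and CYC1 at 2494, 2369 and 2446 normalised counts in the controls and 2588, 2791 and 2539.8 in the treated samples (log2 fold change 0.12 ± 0.051 SE, adjusted p = 0.121). Both were called without IRE1-treated replicate 3 (adjusted p = 0.0449 and 0.0396). With the length and GC trend removed neither was called (UQCRC2 0.040, adjusted p = 0.585, and CYC1 -0.0096, adjusted p = 0.929). UQCRC2 was called with the coding length in that step (0.17, adjusted p = 0.0194), and CYC1 was not. UQCRB, a small quinone-binding subunit, was the highest, at 9719, 9438 and 9518 normalised counts in the controls and 15275, 11899 and 11724 in the treated samples (log2 fold change 0.44 ± 0.077 SE, adjusted p = 0.00107). Replicate 1 was far above the other treated libraries, which were themselves above every control, and the log2 fold change without it was 0.31. The annotated canonical transcript of UQCRB is 8459 bases long, most of it past the coding part. Its value with the length and GC trend removed was 0.72, and 0.32 with the coding length in that step.

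UQCRH, the hinge protein, was the most abundant member of complex III per length (9951 ± 176 normalised counts per kb in the controls). It stood at 5428, 5242 and 5361 normalised counts in the controls and 7457, 6639 and 6268 in the treated samples (log2 fold change 0.34 ± 0.058 SE, adjusted p = 7.95e-04). UQCRHL, a single-exon gene close to UQCRH in sequence, was at 417, 401 and 411 normalised counts in the controls and 529, 523 and 446 in the treated samples (log2 fold change 0.28 ± 0.082 SE, adjusted p = 0.022). Both rose and did not overlap, but reads of 1 may have been counted for the other, and the UQCRHL call was lost in 4 of the 6 fits that left out 1 library (without any control, or without IRE1-treated replicate 2) and with the length and GC trend removed (0.11, adjusted p = 0.402). Cytochrome c (CYCS), the carrier between complexes III and IV, was at 1636, 1735 and 1660.5 normalised counts in the controls and 2196, 1766 and 1871 in the treated samples (log2 fold change 0.21 ± 0.068 SE, adjusted p = 0.0358). Replicate 1 was the highest and replicate 2 was only just above the controls. The call was lost without any 1 of the controls or without IRE1-treated replicate 1 (log2 fold change 0.12, adjusted p = 0.0959). Its value with the length and GC trend removed was 0.39, but 0.068 with the coding length (adjusted p = 0.461), and CYCS has 42 named pseudogenes.

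Of the 19 genes of complex IV, cytochrome c oxidase, 13 were tested and 10 of them rose (median log2 fold change 0.23). The catalytic subunits of this complex are encoded in mitochondrial DNA, and the nuclear ones stabilise and tune it. COX6C had the smallest adjusted p of all members and was at 4608, 4589 and 4486 normalised counts in the controls and 6317, 5996 and 5727 in the treated samples (log2 fold change 0.40 ± 0.048 SE, adjusted p = 1.03e-04). The groups were far apart relative to the spread of either, and COX6C has 17 named pseudogenes. COX5B, a zinc-binding subunit, was at 3356, 3486 and 3607 normalised counts in the controls and 4866, 4402 and 4080.2 in the treated samples (log2 fold change 0.35 ± 0.06 SE, adjusted p = 8.60e-04). Both were called in all 19 fits.

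Complex IV has tissue-specific paralogues, and the form known from most tissues carried the counts. COX4I1 was at 6053, 6136 and 6492 normalised counts in the controls and 8245, 7759 and 6899 in the treated samples (log2 fold change 0.29 ± 0.059 SE, adjusted p = 0.00273), while COX4I2, the lung form, had 0 counts in every library, which allows a count of up to 3 in each. COX6A1 rose (log2 fold change 0.22 ± 0.054 SE, adjusted p = 0.00853) and COX6B1 rose (log2 fold change 0.29 ± 0.085 SE, adjusted p = 0.0212), while their muscle and testis forms COX6A2 and COX6B2 had at most 1 and 6 counts in a library. COX6B1 was at 3996, 4201 and 4410.1 normalised counts in the controls and 6099, 4998 and 4380.4 in the treated samples. IRE1-treated replicate 3 overlapped the controls, and the call was lost with DESeq2 (adjusted p = 0.121) and without control replicate 1, control replicate 2 or IRE1-treated replicate 2. COX6A1 lost its call without control replicate 1 (adjusted p = 0.0575). None of the 3 was called with the length and GC trend removed (COX4I1 0.13, adjusted p = 0.0635, COX6A1 0.043, adjusted p = 0.608, and COX6B1 0.11, adjusted p = 0.285), although COX4I1 was with the coding length, the longest transcript or the narrower span (adjusted p = 0.0311, 0.0375 and 0.0454).

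COX7A2 (log2 fold change 0.26 ± 0.05 SE, adjusted p = 0.00199) and COX7A2L, which takes part in supercomplexes (log2 fold change 0.23 ± 0.067 SE, adjusted p = 0.0221), rose, and the muscle form COX7A1 had 0 counts. COX7A2L lost its call without control replicate 1 or 2 (adjusted p = 0.118 and 0.0725). Neither was called with the length and GC trend removed (COX7A2 0.084, adjusted p = 0.226, and COX7A2L 0.21, adjusted p = 0.0762), although COX7A2L was with the longest transcript in that step (adjusted p = 0.0375). COX7B was at 2356, 2231 and 2341 normalised counts in the controls and 3134, 2821 and 2690.4 in the treated samples (log2 fold change 0.32 ± 0.058 SE, adjusted p = 0.00136), and COX7B2 had 0 counts. COX8A had the highest level of the complex per length (8661 ± 257 normalised counts per kb in the controls) and was at 4156, 4271 and 4409 normalised counts in the controls and 4571, 5019 and 4491 in the treated samples (log2 fold change 0.13 ± 0.052 SE, adjusted p = 0.075). Its treated libraries lay just above the controls, with replicate 2 as the highest, and COX8A was called without IRE1-treated replicate 1 or 3 (adjusted p = 0.0163 and 0.0172). COX8C had at most 1 count.

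NDUFA4, once assigned to complex I and now known as a complex IV subunit, and its paralogue NDUFA4L2 were not called. NDUFA4 was at 892, 937 and 943 normalised counts in the controls and 1250.2, 1018 and 923 in the treated samples (log2 fold change 0.20 ± 0.086 SE, adjusted p = 0.111) and was called only without IRE1-treated replicate 3 (log2 fold change 0.30, adjusted p = 0.0035) and without the filter on low counts (adjusted p = 0.0427). NDUFA4L2 was the other member with a log2 fold change below 0, at 162, 175 and 175 normalised counts in the controls and 180.0, 179 and 141 in the treated samples (log2 fold change -0.04 ± 0.12 SE, adjusted p = 0.852). Its low value came from IRE1-treated replicate 3, without which the log2 fold change was 0.079. NDUFA4L2 overlaps SHMT2 on the opposite strand.

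Of the 17 tested genes of complex V, the ATP synthase, 16 rose (median log2 fold change 0.29), and in all 17 every treated library was above every control. The exception to the calls was ATP5F1B, the catalytic beta subunit, at 17697, 17446 and 17347 normalised counts in the controls and 18825, 19849 and 18363 in the treated samples (log2 fold change 0.12 ± 0.045 SE, adjusted p = 0.0686). Its groups did not overlap, and it was called with DESeq2 (adjusted p = 0.0378) and without IRE1-treated replicate 1 or 3 (adjusted p = 0.0140 and 0.0188). With the length and GC trend removed the log2 fold change of ATP5F1B was 0.020 (adjusted p = 0.804), but 0.14 with the coding length in that step (adjusted p = 0.0190). The alpha subunit ATP5F1A (log2 fold change 0.15 ± 0.043 SE, adjusted p = 0.0211) and the gamma subunit ATP5F1C (log2 fold change 0.16 ± 0.05 SE, adjusted p = 0.0359) rose, by amounts close to the value of ATP5F1B, and are named beside it after their values were seen.

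ATP5PF, a small subunit of the peripheral stalk, had the largest change of the complex and was at 2692, 2588 and 2665 normalised counts in the controls and 3989, 3397 and 3304 in the treated samples (log2 fold change 0.43 ± 0.063 SE, adjusted p = 3.41e-04). Replicate 1 was highest and the other treated libraries were well above the controls. ATP5MJ, a small accessory subunit, was at 1678, 1676 and 1739 normalised counts in the controls and 2245, 2130.5 and 2039.6 in the treated samples (log2 fold change 0.33 ± 0.052 SE, adjusted p = 5.16e-04). Both kept their calls with the length and GC trend removed (log2 fold change 0.25, adjusted p = 0.0032, and 0.16, adjusted p = 0.0216), although ATP5MJ lost its call in 1 of the 18 alternatives.

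The membrane ring of complex V is built of subunit c, a single protein that 3 genes encode with different import sequences. All 3 rose: ATP5MC1 (log2 fold change 0.30 ± 0.062 SE, adjusted p = 0.00356), ATP5MC2 (log2 fold change 0.21 ± 0.045 SE, adjusted p = 0.00444) and ATP5MC3 (log2 fold change 0.15 ± 0.052 SE, adjusted p = 0.0452). ATP5MC2 was the most abundant member of complex V per length (11097 ± 236 normalised counts per kb in the controls) and was at 6847, 7136 and 7057 normalised counts in the controls and 8173, 8256 and 7845 in the treated samples. Its treated libraries were even and all above the controls, and it carries the coding loop site printed above. ATP5MC1 was at 3406, 3385 and 3466 normalised counts in the controls and 4680.5, 4101 and 3814 in the treated samples, with replicate 1 the highest. ATP5MC3 was called only narrowly, and its call was lost in 5 of the 6 fits that left out 1 library, with the block, under library size and without the filter on low counts. None of the 3 was called with the length and GC trend removed (adjusted p = 0.0829, 0.689 and 0.0747).

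**Figure D4:**
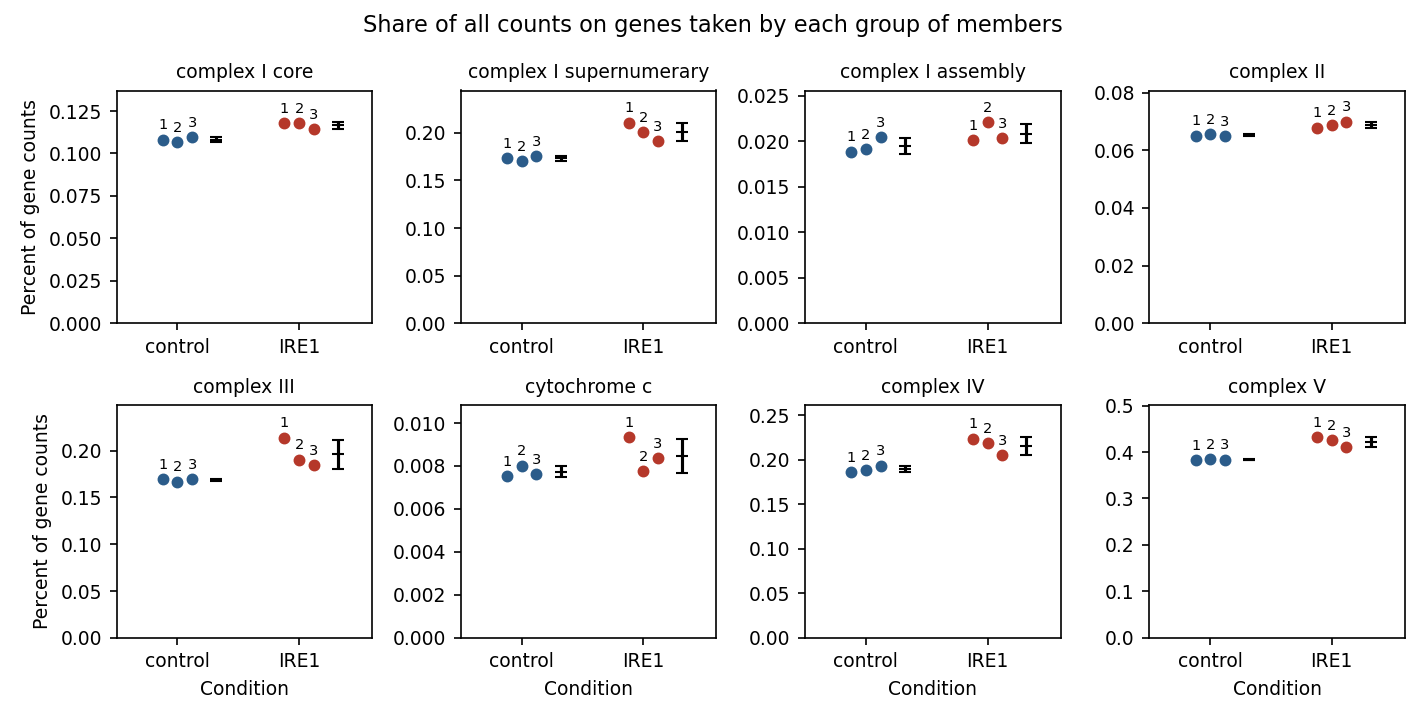
Percent of all counts on genes taken by each of the 8 groups of members in the 6 libraries (numbered points, blue control and red IRE1-treated, with the mean and SD of n = 3 as black bars; the y axes start at 0 and differ in range). The treated libraries lie above all controls in complexes I (core and supernumerary), II, III, IV and V, and overlap them for the assembly factors and cytochrome c.

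By summed counts, complex III and the supernumerary subunits had the largest ratios of treated to control share (1.17 and 1.16), followed by complex IV (1.14), complex V (1.10) and cytochrome c (1.10). Complex II (1.06) and the assembly factors (1.07) had the smallest, with the complex I core at 1.08. The order of the groups was not tested. Complex V took the largest share, 0.383% ± 0.0012 of gene counts in the controls and 0.422% ± 0.011 in the treated samples (SD, n = 3). With the length and GC trend removed, 2 core and 12 supernumerary subunits of complex I, 3 members of complex III, 3 of complex IV, 7 of complex V and cytochrome c were called higher.

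Of the 9 members not tested, COX4I2, COX6A2, COX6B2, COX7A1, COX7B2 and COX8C are tissue-restricted forms, and ATP5MGL, ATP5MF-PTCD1 and NDUFC2-KCTD14 are a single-exon gene and a pair of readthrough genes. None had more than 6 counts in a library, and 4 had 0 in all of them. Near-identical copies limit many of the tested values: 53 of the 90 members have a pseudogene named after them in the annotation and 48 share exon positions with another annotated gene. Among the 15 members with neither, 10 rose, with a median log2 fold change of 0.22.

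Other genes that work with these subunits were counted in the same fit, beside the same backgrounds of 10.3% higher and 12.4% lower, and differences between lists were not tested. Of 56 genes listed as further assembly factors in a broad sense, 13 rose and 1 fell (median log2 fold change 0.13), from FMC1, an ATP synthase assembly factor (log2 fold change 0.45 ± 0.14 SE, adjusted p = 0.0349), to COX11, which delivers copper to complex IV (log2 fold change -0.18 ± 0.084 SE, adjusted p = 0.138). The 1 that fell was LRPPRC (log2 fold change -0.17 ± 0.059 SE, adjusted p = 0.0471), named because no other gene of the list fell. LRPPRC stabilises mitochondrial mRNAs, so its fall is not that of an assembly factor in the strict sense. Of 9 tested proteins that feed or regulate the chain, 3 rose: ETFB (log2 fold change 0.26 ± 0.079 SE, adjusted p = 0.0279) and ETFA of the electron transfer flavoprotein and ATP5IF1, the ATP synthase inhibitor. GPD2, the glycerol phosphate dehydrogenase, was the lowest at 30 ± 3.56 in the controls and 20.5 ± 3.32 in the treated samples normalised counts (log2 fold change -0.54 ± 0.26 SE, adjusted p = 0.15).

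The 13 protein genes of mitochondrial DNA, whose products join complexes I, III, IV and V, took 4.73, 4.68 and 4.76% of the counts in the controls and 5.10, 4.90 and 5.02% in the treated samples. Of these, 8 rose and 0 fell (median log2 fold change 0.17, and 2 higher and 2 lower with the length and GC trend removed). MT-ND3 had the largest value (log2 fold change 0.37 ± 0.07 SE, adjusted p = 0.00187) and MT-ND4L, which overlaps MT-ND4, the lowest (log2 fold change -0.46 ± 0.17 SE, adjusted p = 0.0602), with a wide spread among the treated libraries for the latter (19485 ± 561 in the controls and 14112 ± 5141 in the treated samples). Of 13 regulators of mitochondrial gene expression, 0 rose (edgeR) and 3 fell, with a median of -0.10. TFB1M, a mitochondrial rRNA methyltransferase, was the highest (log2 fold change 0.32 ± 0.12 SE, adjusted p = 0.0597) and PPARGC1A, a coactivator of mitochondrial genes, the lowest (log2 fold change -0.48 ± 0.19 SE, adjusted p = 0.0786). Those that fell were MYC (log2 fold change -0.47 ± 0.05 SE, adjusted p = 3.80e-05), PPRC1 (log2 fold change -0.25 ± 0.053 SE, adjusted p = 0.00385) and PPARGC1B (log2 fold change -0.33 ± 0.11 SE, adjusted p = 0.0345), named because they make up that count. The regulators have long transcripts (median 4609 bases), and 1 of them was lower with the length and GC trend removed.

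**Figure D5:**
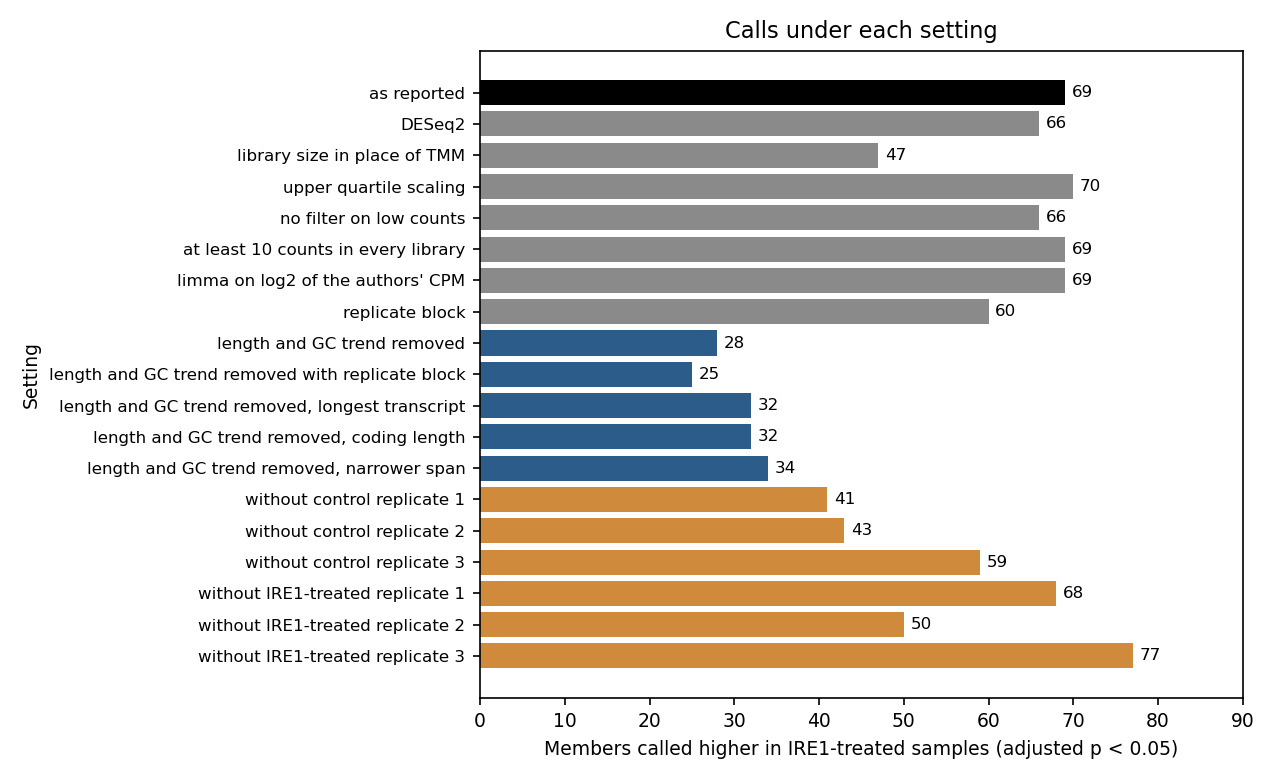
Number of the 90 tested members called higher in the IRE1-treated samples (adjusted p under 0.05) under each setting (95 members entered the fit without the filter on low counts); black is the setting used in the text, grey other tools, scalings and filters, blue the fits with the length and GC trend removed and orange the fits without 1 library. The count lies between 25 and 34 in the blue bars, between 41 and 77 in the orange ones and between 47 and 70 in the grey ones. The share called over all tested genes differs between settings and is not drawn.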

How the data were processed

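Per the labels and the study's methods, total RNA of H929 cells was incubated with or without recombinant IRE1, and stranded paired-end libraries were made from its poly(A) RNA, each sequenced in its own lane, so that lane and sample cannot be told apart. The submitters' processing notes name cutadapt 1.12, STAR 2.5.3a, HTSeq 0.6.1p1 and edgeR 3.24.3, and the reads were aligned to hg19 (GRCh37, Ensembl 87). The strand setting and overlap mode of HTSeq are not given in the sources used here. The authors deposited raw gene counts for each library, and a table of CPM (normalised by them) for 12558 genes, which was used only in an alternative. Summary lines that name no gene held 21.4 to 23.2% of all counts and were left out.

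Counts were fitted in edgeR 4.0.16 (R 4.3.3) with filterByExpr, which kept 14398 of 24945 genes with a count, TMM scaling, the quasi-likelihood test and Benjamini-Hochberg adjustment at 0.05, with 3 control and 3 IRE1-treated samples and no covariates. Normalised counts are counts over the effective library size (size times TMM factor), multiplied by the mean of the 6 effective sizes, and counts per kb divide them by the length of the canonical transcript. The depth of 19615715 to 25678499 counts per library set the precision. Intervals of single counts are not given, and the limits for counts of 0 cover counting error only (3 counts of a library's total). No 2 libraries were copies. The fits and the hairpin search were tested on simulated data.

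Names, lengths and sequences came from GENCODE 44 on GRCh37, which names 55538 of 57905 identifiers. Pseudogenes are those named after a member. Sites were folded with ViennaRNA 2.7.2. The members, the lists and the tests were chosen with earlier results of these data known, and bins of length and 3 settings of the trend (longest transcript, coding length, loess span of 0.2) after seeing the data. Members named were the highest and lowest of each group with a mean of at least 100 normalised counts, the 10 smallest adjusted p-values, the succinate dehydrogenase genes, CYC1 and CYCS, paralogue groups, and the member of each group with most counts per kb. Other lists were given by counts with the highest and lowest gene. Any other gene named completes a count or a list of sites, or its choice is stated beside it. The alternatives were DESeq2 1.42.0, library size, upper quartile scaling, other filters (none, or at least 10 counts in every library), limma 3.58.1 on log2 of the authors' CPM (pseudocount 1), a replicate block, a loess trend (span 0.5) with length and GC removed from each library, members without pseudogenes or shared exons, and each library left out. The values of 1 named member and 1 site are not reported here. The study's exon-level test was not repeated here.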

Additional observations from a re-analysis of the deposited data

How the results depend on the processing

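The number of members called higher (69) lay between 47 and 70 with other tools, scalings and filters, between 41 and 77 with 1 library left out, and the median log2 fold change (0.26) between 0.22 and 0.30 in the latter. Members called lower stayed at 0 in each of these fits except with library size (1, NDUFS1). With the length and GC trend removed the count was 28 (median 0.15), with the replicate block added 25 (median 0.15), with the longest transcript 32 (median 0.16), with the coding length 32 (median 0.14) and with the narrower span 34 (median 0.16). The share of all tested genes called higher also moved, from 10.3% in the main fit to 4.38% without control replicate 2. It was computed only for the fits beside which the text gives it, and the other counts stand without a background. Among members without named pseudogenes or shared exons the count was 10 of 15. The replicate number as a block gave 60 higher and 0 lower. Deviations of same-numbered samples from their group means had correlations of -0.036, -0.0050 and -0.11, and those of the other pairs lay between -0.060 and 0.094. With 3 libraries in each group, these values cannot decide whether the numbers pair the samples. The share of members with CTGCAG was 62.2% and in a counted loop 11.1% with longest transcripts, and 1.11% for loops of exactly 7 bases. Among named members, signs turned as follows, the cause not being tested. With the length and GC trend removed (in the order as planned, with the block, longest transcript), COX8A was -0.037, -0.040 and -0.058, CYC1 -0.0096, -0.010 and -0.028, NDUFAF3 -0.077, -0.085 and -0.10, NDUFAF6 -0.066, -0.065 and -0.021, and NDUFS1 0.22, 0.23 and 0.21. SDHC was -0.0090 with the longest transcript and -0.0028 with the narrower span. With the coding length COX8A was -0.10, NDUFAF3 -0.066 and NDUFS1 0.077, and with the narrower span CYC1 was -0.029, NDUFAF3 -0.077, NDUFAF6 -0.072 and NDUFS1 0.22. NDUFAF6 was -0.054 with library size. With 1 library left out, NDUFAF6 ranged from -0.0075 to 0.054, NDUFAF3 from -0.027 to 0.13 and NDUFA4L2 from -0.097 to 0.079. The 4 largest standard errors were those of NDUFAF5, NDUFA7, NDUFC2 and NDUFA4L2, which had the fewest counts of the tested members.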
